A study of Mus musculus with 9 samples.

Results

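The 52 genes described here encode secreted ligands of the Bmp, Tgfb and Fgf families, the antagonists that bind them or block their receptors, and the intracellular Fgf homologous factors. They were chosen by name, and a RING1B ChIP-seq peak was counted as belonging to one of them when its nearest gene, as assigned in the peak list, was exactly that gene. The Eed-/- list held 20 such peaks of 1810 and the Eed+/+ list 27 of 2347. By group the genes were 15 Bmp and Gdf ligands, 7 Tgfb, activin and Nodal ligands, 8 antagonists, 18 Fgf ligands and 4 Fgf homologous factors.

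RING1B is the catalytic subunit of Polycomb repressive complex 1 (PRC1), which adds ubiquitin to histone H2A. EED is a core subunit of PRC2, the complex that methylates H3K27. RING1B was profiled in Eed-/- mouse embryonic stem cells (mESCs), in which Eed is knocked out in every cell, and in Eed+/+ mESCs, the wild type, both given the strain C57BL/6. Both were grown in serum with LIF on inactivated feeder fibroblasts, which were removed by a short pre-plating before use. The input DNA, sonicated chromatin without antibody, came from Eed+/+ cells only. The labels describe 3 Eed-/- RING1B samples, 1 Eed+/+ RING1B sample and 3 input samples, and the study's methods describe the numbered samples as sequencing lanes. Each genotype therefore had 1 peak list and no replicate error, and no test between the genotypes was possible. Mapped tags numbered 70343706 for Eed-/- RING1B and 16814546 for Eed+/+ RING1B, so the Eed-/- library was sequenced 4.18 times as deeply. Intervals below are exact 95% intervals on counts of tags, peaks or genes, and they cover counting error only.

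The Tgfb superfamily signals through paired serine/threonine kinase receptors, most Bmps by way of Smad1/5/8, and Tgfb, activin, Nodal, Gdf3 and Gdf11 by way of Smad2/3. Noggin, Chordin, Gremlin and Follistatin act outside the cell by binding these ligands. Most Fgfs activate receptor tyrosine kinases at the cell surface. In mESCs, Bmp4 together with LIF helps to hold the undifferentiated state, and Fgf4 made by the cells themselves favours exit from it. Many of the other ligands are active later, in gastrulation, limb, heart, neural tube and skeleton, and developmental genes of this kind are classical Polycomb targets with CpG-rich promoters.

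The sequence upstream of the start site was read for its CG dinucleotides, which were dense at many of the bound genes but not at all of them. The 200 bases before the annotated start of 6 genes are printed 5′ to 3′ on the coding strand, from the mm9 genome (NCBIM37), with every CG dinucleotide in capitals. Bmp2 and Fgf3 had a peak in both genotypes, Fgf4 in Eed-/- cells only, and Fgf15 and Fgf5 in Eed+/+ cells only. Nodal had none and is shown for contrast.
Bmp2: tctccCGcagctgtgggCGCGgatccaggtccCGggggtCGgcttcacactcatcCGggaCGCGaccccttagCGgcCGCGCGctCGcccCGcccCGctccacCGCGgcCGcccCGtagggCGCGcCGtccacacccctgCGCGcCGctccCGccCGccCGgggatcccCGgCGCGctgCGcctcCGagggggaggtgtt
Fgf3: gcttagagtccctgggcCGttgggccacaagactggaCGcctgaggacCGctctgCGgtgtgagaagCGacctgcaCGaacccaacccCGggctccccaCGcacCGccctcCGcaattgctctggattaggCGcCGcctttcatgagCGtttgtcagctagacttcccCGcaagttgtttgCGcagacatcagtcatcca
Fgf4: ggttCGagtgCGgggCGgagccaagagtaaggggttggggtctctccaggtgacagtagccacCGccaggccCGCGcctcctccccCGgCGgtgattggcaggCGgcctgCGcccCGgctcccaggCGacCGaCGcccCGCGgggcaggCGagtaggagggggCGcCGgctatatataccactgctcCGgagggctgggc
Fgf15: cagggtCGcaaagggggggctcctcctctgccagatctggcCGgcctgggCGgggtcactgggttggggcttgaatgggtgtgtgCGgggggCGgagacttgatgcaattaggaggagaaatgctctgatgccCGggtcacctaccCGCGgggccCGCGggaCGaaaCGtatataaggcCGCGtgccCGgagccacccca
Fgf5: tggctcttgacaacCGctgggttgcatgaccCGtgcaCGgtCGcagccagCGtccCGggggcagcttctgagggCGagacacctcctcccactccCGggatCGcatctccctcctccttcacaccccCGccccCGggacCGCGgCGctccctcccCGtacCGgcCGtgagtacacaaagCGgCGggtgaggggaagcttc
Nodal: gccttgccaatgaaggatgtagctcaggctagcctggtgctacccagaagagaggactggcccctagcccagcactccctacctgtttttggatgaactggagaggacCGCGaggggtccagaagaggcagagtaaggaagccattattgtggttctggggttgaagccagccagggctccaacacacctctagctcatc

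On chromosome 2, the Bmp2 stretch (chr2:133377695-133377894, + strand) held 33 CG and lay wholly inside the peaks of both genotypes. On chromosome 7, the stretches of Fgf3 (chr7:152023788-152023987), Fgf4 (chr7:152047091-152047290) and Fgf15 (chr7:152082237-152082436), all on the + strand, held 15, 20 and 15 CG. The Fgf5 stretch (chr5:98683003-98683202, + strand) held 19 CG and the Nodal stretch (chr10:60880520-60880719, + strand) 2. Over the 21107 protein-coding genes whose 5′ end could be read in this way, the median was 7 CG, 90.0% held at least 1 CG and 42.3% held 10 or more. Of the members with a peak in both genotypes, 88.2% held 10 or more (n = 17), of those with a peak in Eed+/+ cells only 62.5% did (n = 8), and of those without a peak 26.1% did (n = 23). Fgf2, with a peak in Eed+/+ cells only, was not among the genes read. Among the bound genes, Fgf11 held 2 CG, Fgf16 held 3, Bmp3 held 4 and Fgf9 held 6, all below the median of all genes. These counts are for the 5′ end of each gene only. Fgf9 has 4 annotated start sites, and the stretch before another of them held 22 CG. The 5 printed bound genes are thus among the CG-rich ones. Over whole peaks, members had a median of 63.0 CG per kb in Eed-/- cells and 56.4 in Eed+/+ cells. All peaks had 62.0 and 50.1, so CG density is a general trait of the bound sites.

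The same contrast appeared at CpG islands, which were located by sequence on the same genome. A start site lay on an island in 16 of 17 members with a peak in both genotypes (94.1%, 71.3 to 99.9) and in 6 of 9 with a peak in Eed+/+ cells only (66.7%, 29.9 to 92.5). Of the 25 members without a peak, 6 had such a start site (24%, 9.36 to 45.1), against 50.4% of all protein-coding genes. All 20 Eed-/- and all 27 Eed+/+ member peaks touched an island, close to the backgrounds of 95.2% and 94.1% over all peaks. The 4 bound genes without an island at the start site itself were Bmp3, Bmp4, Fgf16 and Fgf11, and their peaks reached an island nearby.

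RING1B peaks were found at 18 of the 52 genes in Eed-/- cells (34.6%) and at 26 in Eed+/+ cells (50%). Among all 22225 protein-coding gene names, 6.75% were nearest to an Eed-/- peak and 8.1% to an Eed+/+ peak. Peaks were present in both genotypes at 17 genes, in Eed+/+ cells only at 9 and in Eed-/- cells only at Fgf4. Of the 15 Bmp and Gdf ligands, 8 had an Eed-/- peak and 10 an Eed+/+ peak. Of the 18 Fgf ligands, 5 had an Eed-/- peak and 8 an Eed+/+ peak. Both among the 7 Tgfb, activin and Nodal ligands and among the 8 antagonists, 2 genes had an Eed-/- peak and 3 an Eed+/+ peak, and among the 4 Fgf homologous factors 1 had an Eed-/- peak and 2 an Eed+/+ peak. In each of the 5 groups more genes were bound in the Eed+/+ list than in the Eed-/- list, by 1 to 3 genes.

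The 25 genes without a peak included Nodal and Gdf3, ligands of the early embryo, and the antagonists Lefty1, Lefty2, Cer1, Chrd and Bambi. Also without a peak were Bmp5, Bmp8a, Bmp10, Gdf5, Inha, Inhba and Tgfb3. Among the Fgf genes they were Fgf1, Fgf6, Fgf7, Fgf10, Fgf13, Fgf14, Fgf17, Fgf20, Fgf21, Fgf22 and Fgf23. A gene in this class can still be covered by a peak that carries a neighbour's name. Chrd, whose protein binds Bmps, shares its 5′ region with Thpo, and the peaks named Thpo covered the Chrd start site in both genotypes, with 1.21 tags per kb of peak per 1000000 mapped tags in Eed-/- cells and 4.32 in Eed+/+ cells (chr16:20732867-20735178 and chr16:20732139-20736649). A peak named Obsl1 covered the start site of Inha, the inhibin alpha subunit, in Eed-/- cells, and the overlapping Eed+/+ peak of that name ended 484 bp from Inha. These Obsl1 peaks had 1.38 tags per kb per 1000000 mapped tags in Eed-/- cells and 4.29 in Eed+/+ cells. A peak named F9 covered a start site of Fgf13 in Eed+/+ cells. Counted by start sites inside peaks, 19 members were bound in Eed-/- cells (36.5%, background 6.04%) and 28 in Eed+/+ cells (53.8%, background 7.58%), with 17 bound in both.

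**Figure D1:**
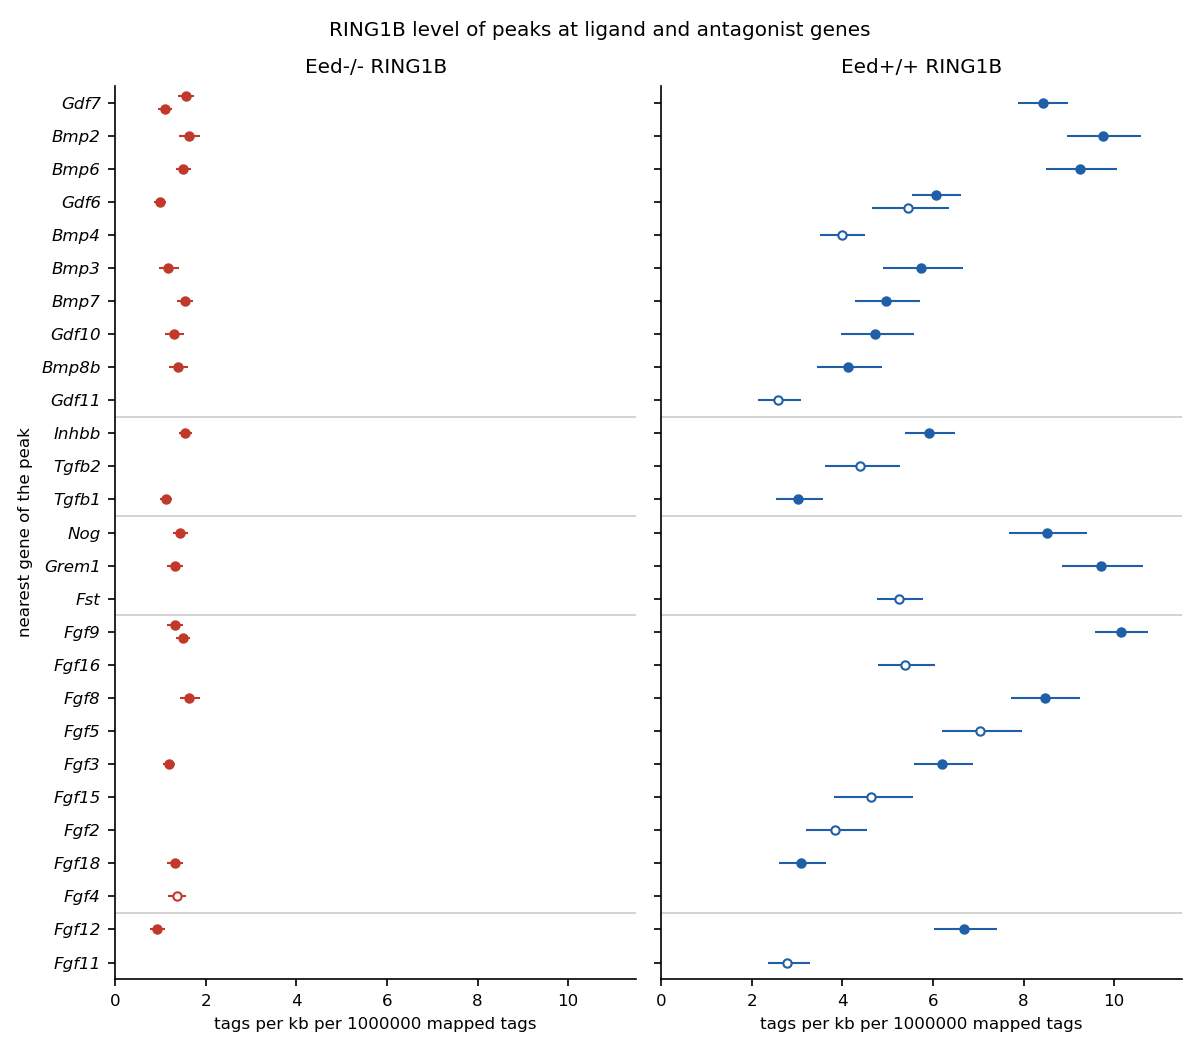
RING1B level of every member peak in Eed-/- cells (left) and Eed+/+ cells (right), in tags per kb of peak per 1000000 mapped tags, with exact 95% Poisson intervals of the tag count. Filled points are peaks overlapped in the other genotype, open points are not, and lines part the 5 gene groups. The Eed-/- points lie between 0.914 and 1.64 and the Eed+/+ points between 2.58 and 10.2.

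Of the 20 Eed-/- member peaks, 19 overlapped an Eed+/+ peak by at least 1 bp (95%, 75.1 to 99.9), against 73.1% of all Eed-/- peaks. Of the 27 Eed+/+ member peaks, 17 overlapped an Eed-/- peak (63.0%, 42.4 to 80.6), against 53.1% of all. The interval for the Eed+/+ share includes its background. The 20 Eed-/- peaks were not independent: they lay at 18 genes, and Gdf7 and Fgf9 each had 2 of them under 1 Eed+/+ peak. By gene, 17 of the 18 also had an Eed+/+ peak. The interval for the Eed-/- share ignores this, and its lower limit of 75.1% is close to the background of 73.1%. Overlapped Eed+/+ member peaks had a median fold enrichment, as the peak caller gave it, of 25.2, a median level of 6.21 and a median of 60.8 CG per kb. The 10 without an Eed-/- peak had medians of 13.45 for fold enrichment, 4.50 for level and 53.3 CG per kb. Over all Eed+/+ peaks, those overlapped had medians of 19.7 for fold enrichment, 5.78 for level and 55.1 CG per kb, and those not overlapped had 13.3 for fold enrichment, 4.03 for level and 44.0 CG per kb.

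RING1B level is used below for tags per kb of peak per 1000000 mapped tags, without subtraction of input. For each of the 17 overlapped Eed+/+ member peaks, the Eed-/- peak that shared the most bases served as its partner, and it carried the same gene's name in every pair. All 17 pairs had the lower level in Eed-/- cells, as did 1247 of 1247 pairs over all genes (100%). The median level in these pairs was 1.39 in Eed-/- cells and 6.21 in Eed+/+ cells. The ratio of Eed-/- to Eed+/+ had a median of 0.190 (quartiles 0.161 and 0.273), against 0.225 (quartiles 0.179 and 0.303) over all pairs. Both lists require more than 100 tags although their depths differ, and the inverse of the depth ratio is 0.239. All 20 Eed-/- member peaks, and 89.7% of all Eed-/- peaks, had levels under the lowest level of any Eed+/+ peak, 1.78. Scaled to the Eed+/+ depth, the member peaks held 28.2 to 104 tags. Of these 20, only the Inhbb peak, in a pair with a ratio of 0.261, would have passed 100, against 120 of all 1810 Eed-/- peaks. The part of the unequal depth in the other ratios was not tested.

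The levels spread less among the Eed-/- peaks. Across the 17 pairs the highest level was 1.79 times the lowest in Eed-/- cells and 3.36 times the lowest in Eed+/+ cells. Over all 1247 pairs the spread was likewise smaller in Eed-/- cells, 3.44 times against 9.915 times in Eed+/+ cells. Spearman's rho between the genotypes across these pairs was 0.44 for level and 0.74 for fold enrichment, against 0.41 and 0.45 over all 1247 pairs. The points share their libraries, base composition and peak calling, and these values are a description. In ascending order the smallest ratios were those of Grem1, Fgf12, Fgf9 and Gdf6, and the largest were those of Tgfb1 and Fgf18. The Eed+/+ level is the denominator of the ratio, so level and ratio are not independent.

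**Figure D2:**
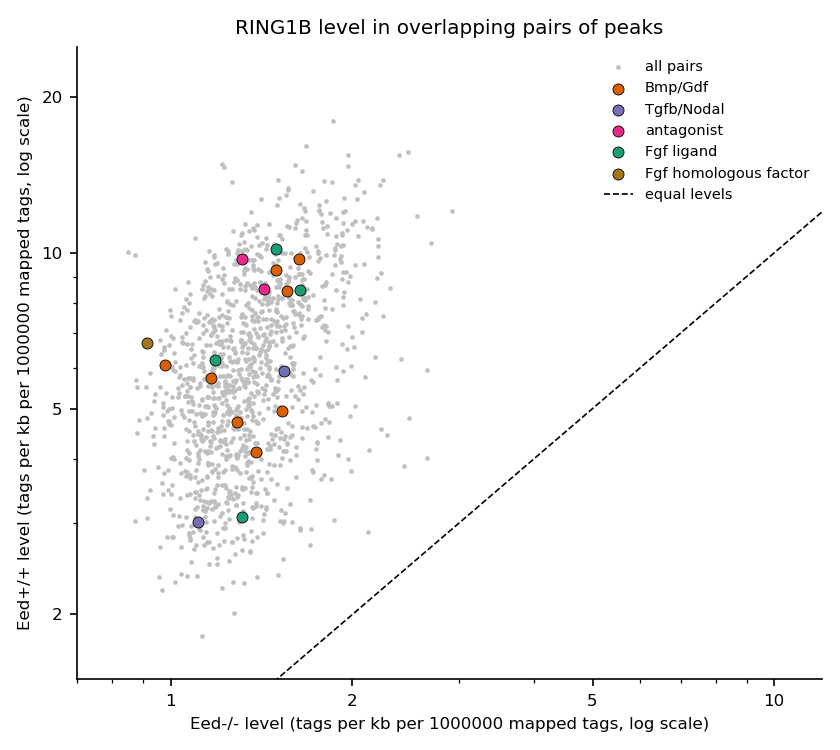
RING1B level in overlapping pairs of peaks, Eed-/- on the horizontal and Eed+/+ on the vertical axis, both in tags per kb of peak per 1000000 mapped tags on log scales. Grey points are all 1247 pairs, coloured points the 17 member pairs by gene group, and the dashed line marks equal levels. Every point lies above that line.

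Among the Bmp and Gdf ligands, Bmp2, a ligand of heart and bone development, had the highest Eed+/+ level, with Bmp6 next and their intervals overlapping. At Bmp2 the Eed-/- peak held 207 tags over 1805 bp (chr2:133377572-133379376) with a level of 1.63 and a fold enrichment of 7.25. The Eed+/+ peak held 568 tags over 3465 bp (chr2:133377466-133380930), with a level of 9.75 and a fold enrichment of 41.4. The ratio of levels was 0.167 (0.142 to 0.196), the Eed-/- peak lay wholly inside the other, and the summits were 5 bp apart.

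Bmp6, a ligand of iron homeostasis and bone, had a closely similar pair. Its Eed-/- peak held 339 tags over 3226 bp (chr13:38436145-38439370), with a level of 1.49 and a fold enrichment of 6.98. Its Eed+/+ peak held 544 tags over 3496 bp (chr13:38435923-38439418), with a level of 9.25 and a fold enrichment of 36.0. The ratio was 0.161 (0.141 to 0.185) and the Eed-/- peak again lay wholly inside, with 92.3% of the Eed+/+ peak covered.

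Gdf7, a roof plate ligand of the dorsal spinal cord, had the highest fold enrichment of any member in Eed+/+ cells. A single Eed+/+ peak of 6431 bp (chr12:8303759-8310189) held 911 tags at a level of 8.42 and a fold enrichment of 51.9. The Eed-/- list divided the same stretch into a peak of 3079 bp in the gene body (chr12:8303637-8306715, 337 tags, fold enrichment 6.54, level 1.56) and a peak of 2826 bp over the start site (chr12:8306798-8309623, 217 tags, fold enrichment 5.55, level 1.09). The ratio for the pair of longest overlap, in the gene body, was 0.185 (0.163 to 0.210). In both genotypes the strongest summit of this gene lay in a coding exon, 3907 bp (Eed-/-) and 3201 bp (Eed+/+) from the start site.

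Gdf6, a ligand of joint, skull and eye development, had 1 Eed-/- peak and 2 Eed+/+ peaks. The Eed-/- peak over the start site (chr4:9770545-9773585) held 209 tags over 3041 bp at a level of 0.977 and a fold enrichment of 5.05. The Eed+/+ peak there (chr4:9770308-9775261) held 505 tags over 4954 bp at a level of 6.06 and a fold enrichment of 22.7, which gave a ratio of 0.161 (0.137 to 0.190). The other Eed+/+ peak (chr4:9785989-9787809, 167 tags over 1821 bp, fold enrichment 6.22, level 5.45) lay 14470 bp from the start site with its summit in a coding exon. It was the only member peak over 2.5 kb from a start site, and it had no counterpart in Eed-/- cells.

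The 4 remaining Bmp and Gdf ligands with an Eed-/- peak had lower Eed+/+ levels than the start site peaks above. At Bmp3, which restrains bone formation, the Eed-/- peak (chr5:99283349-99284809) held 120 tags over 1461 bp at a level of 1.17 and a fold enrichment of 4.64. The Bmp3 peak in Eed+/+ cells (chr5:99283309-99285052) held 168 tags over 1744 bp at a level of 5.73 and a fold enrichment of 15.9, a ratio of 0.204 (0.160 to 0.259). The Eed-/- peak of Bmp3 lay wholly inside the Eed+/+ peak. At Gdf10, the closest relative of Bmp3, the Eed-/- peak (chr14:34736354-34737963) held 146 tags over 1610 bp at a level of 1.29 and a fold enrichment of 4.59. The Gdf10 peak in Eed+/+ cells (chr14:34736090-34737815) held 137 tags over 1726 bp at a level of 4.72 and a fold enrichment of 11.4, a ratio of 0.273 (0.215 to 0.347). The raw tag counts at Gdf10 were nearly equal, and its Eed-/- FDR of 1.98% was the highest of the members.

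Bmp7, a ligand needed for kidney and eye, and Bmp8b, a germ cell and brown fat ligand, had the largest ratios of the group. At Bmp7 the Eed-/- peak (chr2:172763933-172766678) held 295 tags over 2746 bp, with a level of 1.53 and a fold enrichment of 6.57. The Eed+/+ peak at Bmp7 (chr2:172764077-172766369) held 191 tags over 2293 bp, with a level of 4.95 and a fold enrichment of 12.25, and lay wholly inside the Eed-/- peak. The Bmp7 ratio was 0.308 (0.256 to 0.372). At Bmp8b the peaks nearly coincided: 183 tags over 1878 bp in Eed-/- cells (chr4:122781540-122783417, fold enrichment 4.98, level 1.39), against 133 tags over 1922 bp in Eed+/+ cells (chr4:122781627-122783548, fold enrichment 9.63, level 4.12). The Bmp8b ratio was 0.337 (0.268 to 0.424), whereas its neighbour Bmp8a, 180545 bp away, had no peak in either list.

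Bmp4 and Gdf11 were bound in Eed+/+ cells only. Bmp4, the ligand that helps to sustain undifferentiated mESCs and later induces mesoderm and germ cells, had an Eed+/+ peak of 3720 bp (chr14:47006889-47010608) with 249 tags, a level of 3.98 and a fold enrichment of 20.5. At Gdf11, which patterns the body axis, the Eed+/+ peak (chr10:128327463-128330276, 2814 bp) held 122 tags at a level of 2.58 and a fold enrichment of 6.96. The Gdf11 level was the lowest among the Eed+/+ member peaks, whereas the Bmp4 fold enrichment exceeded 64.4% of the Eed+/+ list. A gene without an Eed-/- peak need not lack RING1B, since a call needs a minimum signal, and the lowest level of any peak in the Eed-/- list was 0.849.

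Of the Tgfb, activin and Nodal ligands, Inhbb and Tgfb1 had peaks in both genotypes. Inhbb encodes the beta B subunit of activin B, and its Eed-/- peak (chr1:121316330-121320348) held 436 tags over 4019 bp, the most of any Eed-/- member peak, with a level of 1.54 and a fold enrichment of 7.16. Its Eed+/+ peak (chr1:121315764-121320446) held 466 tags over 4683 bp, with a level of 5.92 and a fold enrichment of 25.2. The ratio was 0.261 (0.228 to 0.298). The Eed-/- peak of Inhbb covered 85.8% of the Eed+/+ peak and lay wholly inside it.

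Tgfb1, a regulator of immune cells and matrix, had the weakest of the Eed-/- member peaks by fold enrichment. It held 289 tags over 3708 bp in Eed-/- cells (chr7:26471973-26475680, fold enrichment 3.53, level 1.11), against 137 tags over 2697 bp in Eed+/+ cells (chr7:26471959-26474655, fold enrichment 11.3, level 3.02). The ratio was 0.367 (0.298 to 0.453), and the Eed-/- peak was wider by 1011 bp. Tgfb2, which is required in heart and palate, had an Eed+/+ peak only (chr1:188528835-188530368, 113 tags over 1534 bp, fold enrichment 11.9, level 4.38).

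Nog and Grem1, which encode Bmp antagonists, had high Eed+/+ levels and low ratios. Noggin acts in the node and notochord, and its gene had the highest fold enrichment of the Eed-/- member peaks. The Nog peak held 288 tags over 2870 bp in Eed-/- cells (chr11:89162480-89165349, fold enrichment 7.84, level 1.43), against 378 tags over 2642 bp in Eed+/+ cells (chr11:89162311-89164952, fold enrichment 40.6, level 8.51). The Nog ratio was 0.168 (0.143 to 0.196). Gremlin 1 relays signals in the limb bud, and its gene had the smallest ratio of the 17 pairs, 0.135 (0.115 to 0.159). That interval overlaps those of Fgf12, Fgf9, Gdf6, Bmp6, Bmp2 and Nog. The Grem1 peak held 232 tags over 2512 bp in Eed-/- cells (chr2:113597002-113599513, fold enrichment 5.65, level 1.31), against 457 tags over 2799 bp in Eed+/+ cells (chr2:113596723-113599521, fold enrichment 29.8, level 9.71). Its summits, in an intron, were 17 bp apart.

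Fst encodes Follistatin, which binds activin. Its Eed+/+ peak was one of the widest, 4806 bp (chr13:115246474-115251279), with 425 tags, a level of 5.26 and a fold enrichment of 19.3. It had no counterpart in Eed-/- cells. The antagonists thus divided into 2 genes with peaks in both genotypes, 1 in Eed+/+ cells only and 5 with none.

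Among the Fgf ligands, Fgf9 and Fgf8 had the highest Eed+/+ levels. Fgf9, a ligand of lung and testis development, had an Eed+/+ peak of 6708 bp with 1145 tags (chr14:58689205-58695912), the widest and deepest of all member peaks, at a level of 10.2 and a fold enrichment of 44.3. As at Gdf7, the Eed-/- list held a pair of peaks under it, one of 2554 bp (chr14:58689863-58692416, 235 tags, fold enrichment 6.52, level 1.31) and one of 3527 bp (chr14:58692560-58696086, 370 tags, fold enrichment 6.29, level 1.49). The ratio for the pair of longest overlap was 0.147 (0.130 to 0.165). Its summits were 4046 bp apart, the widest shift of the 17 pairs, and the Eed+/+ summit lay under the other Eed-/- peak.

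Fgf8 is needed for gastrulation and for limb and brain patterning. The Fgf8 peak held 212 tags over 1842 bp in Eed-/- cells (chr19:45815611-45817452, fold enrichment 5.12, level 1.64), against 488 tags over 3428 bp in Eed+/+ cells (chr19:45815234-45818661, fold enrichment 33.0, level 8.47). The ratio was 0.193 (0.164 to 0.228), although the Fgf8 level was, with that of Bmp2 just below it, the highest of the Eed-/- member peaks. Fgf18, a regulator of cartilage and bone, lay at the other end with a ratio of 0.425 (0.341 to 0.530). Its peak held 216 tags over 2343 bp in Eed-/- cells (chr11:33046422-33048764, fold enrichment 3.99, level 1.31), against 138 tags over 2659 bp in Eed+/+ cells (chr11:33046152-33048810, fold enrichment 8.28, level 3.09). By level, Fgf8 and Fgf18 thus stood far apart in Eed+/+ cells and closer together in Eed-/- cells, where all member peaks lay between 0.914 and 1.64. By fold enrichment they exceeded 57.4% (Fgf8) and 16.2% (Fgf18) of the Eed-/- list.

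Fgf3, Fgf4 and Fgf15 lie in a row on chromosome 7, all on the + strand, with 16949 bp between the first pair and 31288 bp between the second. Each showed a different pattern. Fgf3, which acts in inner ear and tail, had peaks in both genotypes: 356 tags over 4282 bp in Eed-/- cells (chr7:152023217-152027498, fold enrichment 4.62, level 1.18), against 359 tags over 3439 bp in Eed+/+ cells (chr7:152022691-152026129, fold enrichment 17.2, level 6.21). The Fgf3 ratio was 0.190 (0.164 to 0.221), and the Eed-/- peak reached further into the gene.

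Fgf4, which mESCs and the inner cell mass express, was the only member with a peak in Eed-/- cells alone. Its peak held 193 tags over 2027 bp (chr7:152046694-152048720) at a fold enrichment of 4.30, an FDR of 1.63% and a level of 1.35, and covered the start site and the upstream stretch printed above. At the Eed+/+ depth these tags would number 46.1, below the 100 required in that list. Fgf15, the mouse counterpart of human FGF19 and a gut hormone that restrains bile acid synthesis, had a peak in Eed+/+ cells alone, with 113 tags over 1452 bp (chr7:152082244-152083695), a level of 4.63 and a fold enrichment of 14.2. The narrowest Eed+/+ member peak was that of Fgf15.

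**Figure D3:**
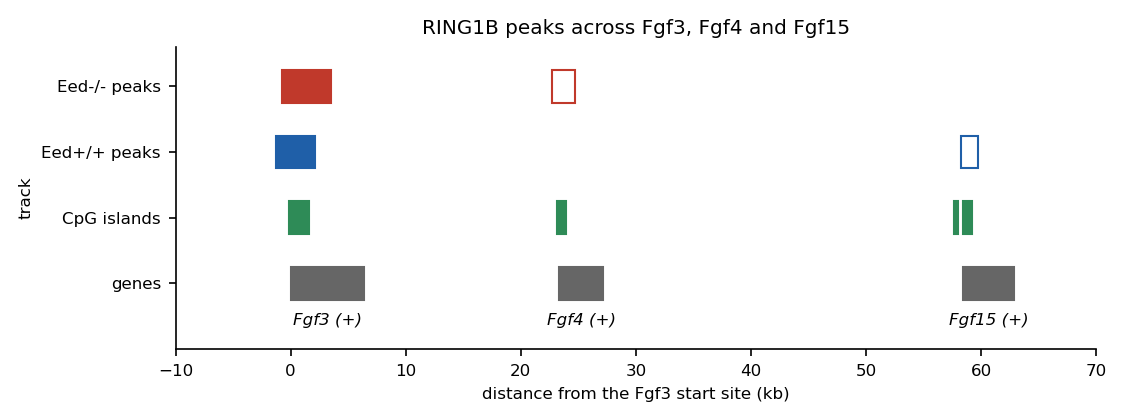
RING1B peaks of Eed-/- (red) and Eed+/+ (blue) cells, CpG islands (green) and genes with strand (grey) over Fgf3, Fgf4 and Fgf15, in kb from the Fgf3 start site. A filled box is overlapped in the other genotype and an open one is not, so that Fgf3 has a filled box in each row, Fgf4 an open Eed-/- box and Fgf15 an open Eed+/+ box.

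Fgf5, Fgf16 and Fgf2 also had peaks in Eed+/+ cells only. Fgf5, a marker of the early epiblast, had 248 tags over 2096 bp (chr5:98682012-98684107) at a level of 7.04 and a fold enrichment of 32.0, the highest level among the member peaks without an Eed-/- counterpart. Fgf16, a heart ligand on the X chromosome, had 289 tags over 3194 bp (chrX:102958055-102961248) at a level of 5.38 and a fold enrichment of 36.1. Fgf2, a broadly expressed growth factor, had 127 tags over 1974 bp (chr3:37246693-37248666) at a level of 3.83 and a fold enrichment of 12.7. Strong Eed+/+ peaks without an Eed-/- call were not peculiar to these genes. Of the 326 Eed+/+ peaks with a fold enrichment at least that of Fgf5, a limit set after its value was seen, 79.1% were overlapped in Eed-/- cells, as were 6 of the 8 member peaks in that range.

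The Fgf homologous factors stay inside the cell and modulate voltage-gated sodium channels. Fgf12 had the lowest level of the Eed-/- member peaks, with 118 tags over 1835 bp (chr16:28446029-28447863, fold enrichment 5.06, level 0.914), against 360 tags over 3203 bp in Eed+/+ cells (chr16:28444615-28447817, fold enrichment 30.1, level 6.68). The ratio was 0.137 (0.110 to 0.169). The Eed-/- peak ended 716 bp short of the start site, which the Eed+/+ peak covered. Fgf11 had a peak in Eed+/+ cells only (chr11:69613570-69616707, 147 tags over 3138 bp, fold enrichment 8.77, level 2.79).

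**Figure D4:**
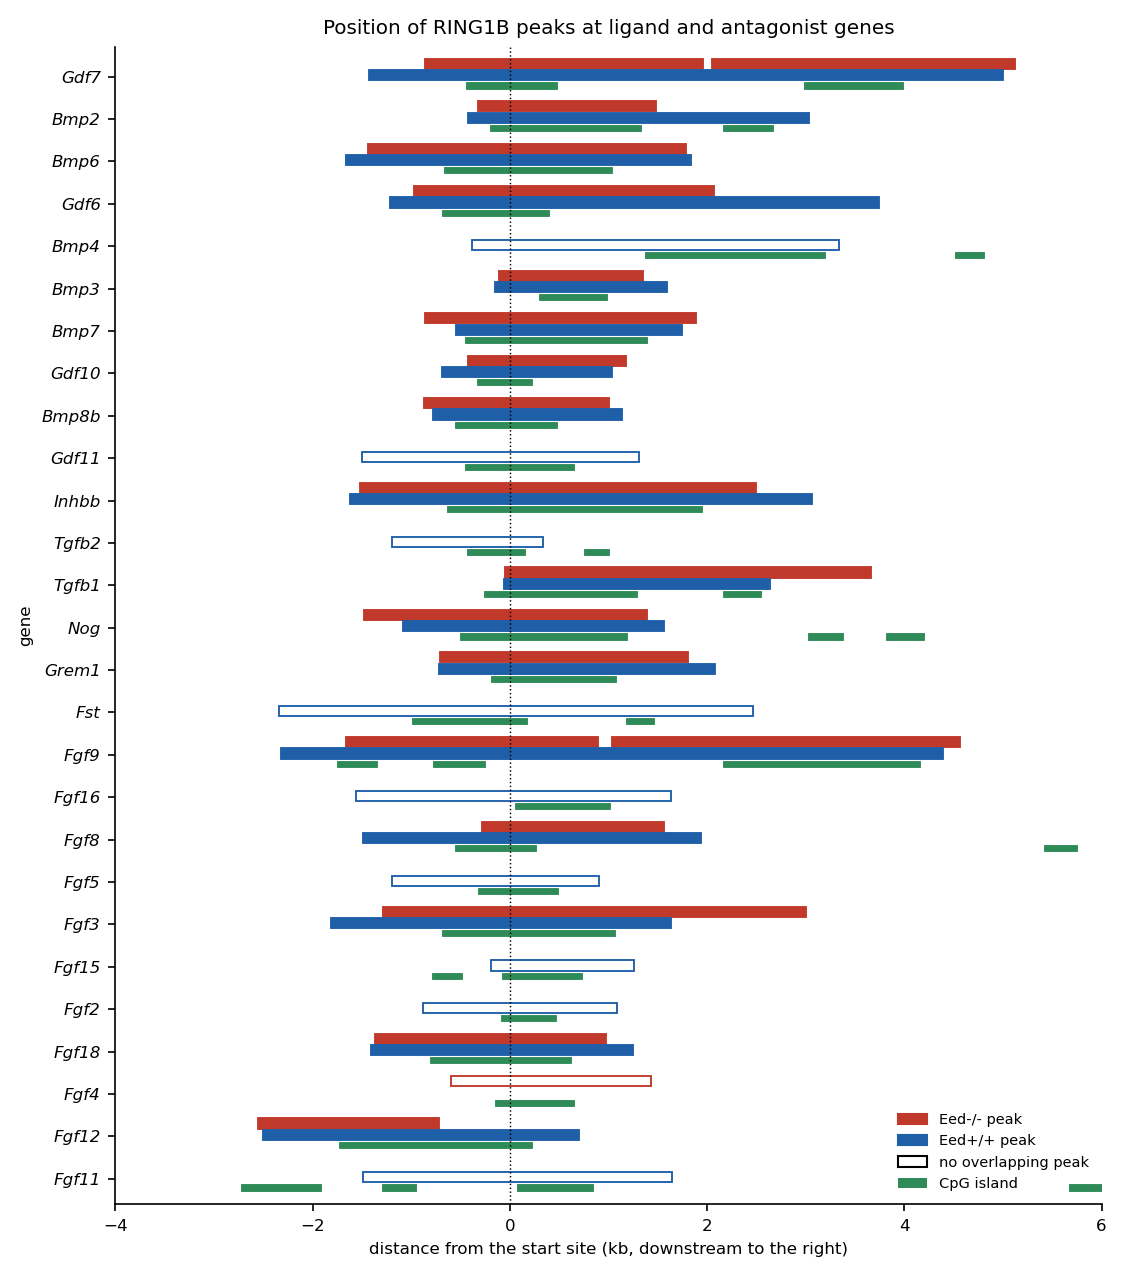
Extent of member peaks around a start site of their gene, in kb with downstream to the right, for Eed-/- (red, upper), Eed+/+ (blue, middle) and CpG islands (green, lower). A filled peak is overlapped in the other genotype and an open one is not. The dotted line marks the start site nearest the Eed+/+ summit (Eed-/- for Fgf4), and the Eed+/+ peak of Gdf6 that lies 14470 bp from the start is outside the range drawn.

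Most member peaks lay over or within 1 kb of a start site in both genotypes, though not always centred on it. An annotated start site lay inside or within 1 kb of 19 of 20 Eed-/- peaks (95%, background 78.3%) and 26 of 27 Eed+/+ peaks (96.3%, background 73.7%). The exceptions were the gene body peak of Gdf7 in Eed-/- cells and the distal Gdf6 peak in Eed+/+ cells. The summit, the point of highest tag density, lay in a coding exon in 6 Eed-/- and 12 Eed+/+ peaks and in an untranslated exon in 7 Eed-/- and 6 Eed+/+ peaks. It lay in an intron in 3 Eed-/- and 6 Eed+/+ peaks and upstream in 4 Eed-/- and 3 Eed+/+ peaks. These summit counts are for member peaks only, without a background over all peaks, and are a description. Across the 17 pairs the summits were a median of 67 bp apart, against 97 bp over all pairs. Only at Fgf9 and Gdf6 were the summits of a member pair over 1 kb apart.

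The Eed-/- peak was the narrower in 13 of 17 pairs (76.5%), close to the background of 76.2%. Median widths in the pairs were 2746 bp in Eed-/- cells and 3203 bp in Eed+/+ cells. The 4 exceptions, wider in Eed-/- cells, were Nog, Bmp7, Fgf3 and Tgfb1. The Eed-/- peak lay wholly inside the Eed+/+ peak in 8 of 17 pairs (47.1%), against 57.4% of all pairs. Width depends on depth through the peak calling, and its part in these differences was not tested.

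Of 63 genes that act with these ligands, 13 had a peak in Eed-/- cells (background 6.75% of genes) and 17 in Eed+/+ cells (background 8.1%), 10 of them in both. Their 15 Eed-/- peaks had a median fold enrichment of 4.60 and a median level of 1.34, and their 20 Eed+/+ peaks 14.6 and 5.72. An Eed+/+ peak overlapped 12 of the 15 Eed-/- peaks (80%), near the 73.1% of all Eed-/- peaks, and an Eed-/- peak 12 of the 20 Eed+/+ peaks (60%), near the 53.1% of all Eed+/+ peaks. None of 9 other Tgfb superfamily ligands had a peak in either list, a list too short to differ from the backgrounds of 6.75% and 8.1%.

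Of 16 Tgfb superfamily receptors and coreceptors, Tgfbr3 and Acvr2b had a peak. Tgfbr3, the coreceptor betaglycan, had a level of 1.73 (fold enrichment 6.12) in Eed-/- cells, against 5.95 (fold enrichment 11.6) in Eed+/+ cells. Acvr2b, an activin receptor, had a peak in Eed-/- cells only (level 1.11, fold enrichment 4.07). These counts, 1 or 2 of 16 genes, are close to the shares of all genes nearest to a peak, 6.75% in Eed-/- cells and 8.1% in Eed+/+ cells.

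The 8 Smads carry the signal to the nucleus or, in the case of the inhibitory ones, restrain it. Of these, 3 had an Eed-/- peak (background 6.75% of genes) and 4 an Eed+/+ peak (background 8.1%). Smad6, an inhibitory Smad induced by Bmps, had a level of 1.496 (fold enrichment 5.12) in Eed-/- cells, against 6.64 (fold enrichment 21.4) in Eed+/+ cells. Smad9, the gene of Smad8, had a peak in Eed+/+ cells only (level 3.17, fold enrichment 14.3). The peak named Smad5, which lay 48919 bp from the nearest start site of that gene in Eed-/- cells, had a level of 1.63 (fold enrichment 6.94) in Eed-/- cells, against 8.03 (fold enrichment 29.0) in Eed+/+ cells. Those named Smad2 lay 180714 and 94246 bp from the gene's start sites in Eed-/- cells, with levels of 1.12 and 1.34 (fold enrichments 4.45 and 4.13), against levels of 4.36 and 3.96 (fold enrichments 14.6 and 10.2) in Eed+/+ cells. Proximal binding was thus seen at Smad6 and Smad9, and the other Smad assignments were distant.

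The Id genes, direct targets of Bmp signalling, had peaks in Eed+/+ cells only, at 3 of 4 (background 8.1% of genes). The Eed+/+ level was 3.79 at Id2 (fold enrichment 13.5) and 7.46 at Id4 (fold enrichment 13.8). The Id3 peaks had levels of 5.49 and 3.14 and fold enrichments of 15.1 and 10.5. The Id4 peak covered a start site and an Id3 peak lay 114 bp from one, whereas the Id2 peak lay 3412 bp away. None of these 4 peaks was overlapped in Eed-/- cells, where 53.1% of all Eed+/+ peaks were, and 4 peaks are too few to read anything from this.

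Of 17 other extracellular modulators, 4 had an Eed-/- peak (background 6.75% of genes) and 6 an Eed+/+ peak (background 8.1%). Sost, the sclerostin gene of bone, had a level of 1.37 (fold enrichment 5.99) in Eed-/- cells, against 6.55 (fold enrichment 34.5) in Eed+/+ cells. Bmper, a Bmp-binding protein gene, had 1.24 (fold enrichment 5.01) in Eed-/- cells, against 6.79 (fold enrichment 21.7) in Eed+/+ cells. Ltbp2, a matrix protein gene of the latent Tgfb binding family, had a peak in Eed+/+ cells only (level 7.73, fold enrichment 21.4). The fourth by fold enrichment, the follistatin-like gene Fstl4, had 1.34 (fold enrichment 4.55) in Eed-/- cells, against 6.96 (fold enrichment 20.8) in Eed+/+ cells.

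Of 9 Fgf receptors and adaptors, 4 had an Eed-/- peak (background 6.75% of genes) and 3 an Eed+/+ peak (background 8.1%). At Fgfr3, a receptor of cartilage and nervous system, the start site peak had a level of 1.49 (fold enrichment 3.40) in Eed-/- cells, against 8.59 (fold enrichment 27.3) in Eed+/+ cells. A distal peak named Fgfr3, 24601 bp from the start site in Eed-/- cells, had a level of 1.13 (fold enrichment 5.68) in Eed-/- cells, against 1.81 (fold enrichment 4.46) in Eed+/+ cells. Kl, the Klotho coreceptor gene, had a level of 1.54 (fold enrichment 3.29) in Eed-/- cells, against 5.95 (fold enrichment 14.6) in Eed+/+ cells, and Fgfr2 had a level of 1.38 (fold enrichment 4.18) in Eed-/- cells, against 3.44 (fold enrichment 8.60) in Eed+/+ cells. Fgfrl1, a receptor-like gene, had a peak in Eed-/- cells only (level 1.16, fold enrichment 4.60). In every pair named here the Eed-/- level was the lower, as it was in all 1247 pairs over all genes (100%). Both lists require more than 100 tags at unequal depth, and the part of depth in this was not tested. By fold enrichment the distal Fgfr3 pair went the other way, with 5.68 in Eed-/- cells and 4.46 in Eed+/+ cells.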

How the data were processed

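RING1B ChIP-seq peak lists of Eed-/- and Eed+/+ mESCs, 1 per genotype, were analysed. Tags had been aligned to mm9 by the authors using bowtie, with only uniquely placed tags retained, and MACS peaks were kept by them at under 2% FDR with more than 100 tags. For the software versions and the MACS control, no statement was found (not given in the sources used here). Each deposited peak carries its count of tags, its fold enrichment ratio, its FDR in percent, and the nearest gene with the distance to the gene's start. Depths are the mapped tags stated in the study's supplement. CBX7 samples were not analysed here.

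Peaks belonged to a member when the named gene matched exactly. Members, gene lists and comparisons were chosen with earlier results of these data known. Every member with a peak was named. Genes of the other lists were named where they had a peak, at most 4 per list by highest fold enrichment. Overlap required 1 bp. Tags per kb were scaled to 1000000 mapped tags. Start sites came from GENCODE M1 on NCBIM37 (mm9), and the starts implied by the lists lay within 10 bp of an annotated one for 38 of 47 member peaks. For Bmp2 they lay 1039 bp apart. CpG islands were segments of high running score (17 per CG, −1 per other base) with a length of 200 bp or more, at least 50% GC, and an observed to expected CG ratio of at least 0.6. Shares carry Clopper-Pearson, levels Poisson and ratios conditional binomial intervals. Overlap and island searches were tested on simulated data. Python 3.11.15, numpy 2.4.6, pandas 2.3.3, scipy 1.17.1, numba 0.67.0 and matplotlib 3.10.9 were used.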

Additional observations from a re-analysis of the deposited data

How the results depend on the processing

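The stricter Eed-/- thresholds changed the overlap most. When both lists were held to an FDR of 1%, 7 Eed-/- member peaks were left, 100% of them overlapped, and 25.9% of the Eed+/+ member peaks were overlapped. The whole lists fell too: 436 of all 1810 Eed-/- peaks and 361 of all 1247 pairs were left. With Eed-/- peaks held to over 100 tags at the Eed+/+ depth, 1 was left (Inhbb), 100% was overlapped and the Eed+/+ share was 3.70%. Over all genes, 120 of 1810 Eed-/- peaks and 102 of 1247 pairs were left. When 50% of both peaks had to be covered, 75% of Eed-/- member peaks and 55.6% of Eed+/+ member peaks counted as overlapped. The shares over all peaks under that rule are not given here. Within 2.5 kb of a start site lay 100% of Eed-/- member peaks. The median level ratio of 0.190 over 17 pairs became 0.167 over the 7 pairs left at an FDR of 1%. Over all genes the median likewise moved, from 0.225 to 0.193. At the Eed+/+ depth only the Inhbb member pair was left, with a ratio of 0.261, against a median of 0.198 over the 102 pairs of all genes. With fold enrichment in place of level, the median over 17 pairs was 0.222, against 0.248 over all pairs. Eed-/- was the lower in every member pair under each alternative, and by level it was the lower in 100% of all pairs. With more than 150 tags in both lists, 76.5% of Eed-/- and 61.1% of Eed+/+ member peaks were overlapped, so the Eed-/- share then lay near the 73.1% of all Eed-/- peaks without that filter. Adding peaks within 5 kb of a member under another gene's name and an island minimum of 500 bp left the shares within their intervals. No paired analysis was possible because each genotype has 1 peak list, in which lanes numbered alike were pooled. Depth limits the comparison: a missing call in either list is not an absence of RING1B.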
